A study of Mus musculus with 5 samples.

Results

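Plac8, Ly6c1, Ltb4r1, Spp1, Tgm2, Cacna1s and Ttc39c are genes whose signal was far lower in iTreg than in most mouse CD4 T cell cultures that had begun as Th1. In Th1 cells that had been rested, Spp1 was only 1.33-fold higher than in iTreg. These 7 genes were selected on the measured signals themselves, out of 21366 genes with a value on every array. Their difference between iTreg and the Th1-origin cultures is therefore a description of the choice and supports nothing. The choice set the Th1-origin arrays against iTreg and not against each other, and most of the values below concern differences among those cultures. The signals on the Th1-origin arrays were still part of the choice, so these differences are not free of it.

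Gene expression was measured on 5 one-colour Agilent mouse arrays, 1 for each culture, of cells that all started as naive CD4 T cells from spleens of C57BL/6 mice. Th1 cells were stimulated through CD3 and CD28 for 4 days with IL-2, IL-12 and an antibody against IL-4. For Th1+TGFb, Th1 cells then spent 4 further days in the medium that makes iTreg, which holds stimulation through CD3 and CD28, IL-2, TGF-b and antibodies against IFNg and IL-4, for 8 days in all. For rested, Th1 cells spent those 4 days in IL-2 with antibodies against IFN-g and IL-4, and without stimulation through CD3 and CD28. For Th1reg, rested cells then spent 4 days in the iTreg medium, for 12 days in all. For iTreg, naive cells spent 4 days in the same iTreg medium and were never Th1. IL-2 and the antibody against IL-4 were thus common to all 5 cultures. Th1 and iTreg share a total time of 4 days, as Th1+TGFb and rested share 8 days; in the other comparisons total time differs along with treatment, and their parts cannot be told apart. With 1 array a culture there was no spread between cultures to test against, and no p-value is given.

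Th1 cells are the helper T cells that make IFN-g under the transcription factor T-bet, and they move into inflamed tissue through chemoattractant receptors. TGF-b given to naive CD4 T cells during stimulation instead induces Foxp3, the transcription factor of regulatory T cells. The 7 genes have no single pathway. Plac8 encodes a small cysteine-rich protein found in many blood cells. Ly6c1 encodes the Ly6C surface antigen, which in mice marks monocytes and effector and memory T cells. Ltb4r1 encodes BLT1, the high-affinity receptor for the lipid chemoattractant leukotriene B4. Spp1 encodes osteopontin, a secreted phosphoprotein that binds integrins and CD44. Tgm2 encodes transglutaminase 2, which cross-links proteins in a calcium-dependent way. Cacna1s encodes the pore subunit of the L-type calcium channel of skeletal muscle, and Ttc39c encodes a protein with tetratricopeptide repeats.

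Promoters of Plac8, Ly6c1 and Ltb4r1 are shown because these genes followed like courses over the Th1-origin cultures, and that of Spp1 because it took another. They come from RefSeq (build GRCm38.p6), whose table held 5 of the 7 genes with 8 promoters in all. Plac8, Ly6c1 and Spp1 have 2 promoters each there, and the one with a motif match is shown; the other promoter of each, and the Cacna1s promoter, held none of the motifs. Each line gives the 250 bases before a gene's start, 5′ to 3′ on the gene's strand, and capitals mark the matches to the searched motifs. The Plac8 promoter shown lies at chr5:100572206-100572455 on the minus strand, that of Ly6c1 at chr15:75048664-75048913 on the minus strand, that of Ltb4r1 at chr14:55765712-55765961 on the plus strand and that of Spp1 at chr5:104434861-104435110 on the plus strand.
Plac8: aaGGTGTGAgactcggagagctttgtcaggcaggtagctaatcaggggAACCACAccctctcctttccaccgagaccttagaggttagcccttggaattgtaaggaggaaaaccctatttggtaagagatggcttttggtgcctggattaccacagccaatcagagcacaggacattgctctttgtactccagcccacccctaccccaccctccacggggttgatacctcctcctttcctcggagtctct
Ly6c1: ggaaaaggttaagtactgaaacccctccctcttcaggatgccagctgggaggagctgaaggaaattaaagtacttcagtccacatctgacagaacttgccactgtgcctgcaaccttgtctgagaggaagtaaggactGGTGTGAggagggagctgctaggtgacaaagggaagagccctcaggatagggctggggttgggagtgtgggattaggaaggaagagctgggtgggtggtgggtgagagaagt
Ltb4r1: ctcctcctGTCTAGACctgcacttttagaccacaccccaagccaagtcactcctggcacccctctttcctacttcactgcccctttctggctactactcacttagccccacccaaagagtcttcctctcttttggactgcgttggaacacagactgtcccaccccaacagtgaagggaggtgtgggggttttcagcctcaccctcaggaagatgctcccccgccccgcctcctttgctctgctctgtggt
Spp1: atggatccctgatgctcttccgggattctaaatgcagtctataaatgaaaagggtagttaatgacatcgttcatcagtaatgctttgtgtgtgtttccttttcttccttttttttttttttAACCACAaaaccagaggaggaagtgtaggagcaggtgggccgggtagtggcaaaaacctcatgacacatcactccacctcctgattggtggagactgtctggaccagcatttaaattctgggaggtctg
The 5 motifs, searched on both strands, were the T-box core TCACACC, the GAS element TTCNNNGAA, the RUNX site TGTGGTT, the forkhead site TGTTTAC and the SMAD palindrome GTCTAGAC. The T-box core stood in the promoters of Plac8, starting 248 bases before the gene's start, and Ly6c1, starting 112 bases before it, which is 2 of the 8 member promoters. The same core stood in 3.33% of all 32851 promoters of that length. The RUNX site stood in Plac8, at 202 bases, and in Spp1, at 129 bases, and in 4.4% of all promoters. The SMAD palindrome stood in Ltb4r1, at 242 bases, and in 0.167% of all promoters. No member promoter held the GAS element, found in 7.02% of all promoters, or the forkhead site, found in 3.17%. A match says only that these letters are present, and no binding was measured.

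The cultures' labels were set against their defining genes. Tbx21, which encodes T-bet, had scaled log2 levels of 6.42 in Th1 cells, 4.71 in Th1+TGFb cells, 4.22 in rested cells, 4.86 in Th1reg cells and 0.58 in iTreg cells. A scaled level is log2 of the array's processed signal minus log2 of that array's 75th percentile. Ifng, the cytokine of Th1 cells, stood at 10.23, 9.56, 2.79, 8.37 and 1.27 in the same order. Foxp3 was well above background in Th1reg, at 4.12, and in iTreg, at 5.26, and not in the other 3 cultures. All 10 T cell genes of a marker list were well above background on all 5 arrays. Their summed linear level, relative to the array's 75th percentile, was 2317, 2632, 1829, 1987 and 1211 in the same order, lowest in iTreg. In Th1 over iTreg, 6 of the 10 were at least 2-fold higher and 1 lower, where 17.8% and 10.9% of all genes were. The median log2 difference there was 1.27, against 0.23 for all genes. Of 19 myeloid genes with a probe, 6 were well above background in Th1 cells, 8 in Th1+TGFb cells, 12 in rested cells, 8 in Th1reg cells and 7 in iTreg cells, and their summed linear level, relative to the array's 75th percentile, was 297, 653, 1041, 204 and 488 in that order, highest in rested. Csf3r and Itgam made up 293, 647, 1033, 200 and 482 of it, and the other 17 genes 4.27, 5.87, 7.74, 4.15 and 6.47. Lyz2, Lyz1, S100a8, S100a9, Cybb and Spi1, which define myeloid cells, were well above background on no array, whereas Fcgr3, Tyrobp and Adgre1 were so in rested alone. Of 8 B cell genes, between 3 and 4 were well above background on each array, and Cd79a, Pax5 and Blk on none. Of 8 genes of CD8 T and NK cells 3 to 5 were well above background, and of 8 dendritic cell genes 2 to 4. The part that other cells had in the results below was not tested, and in bulk RNA fewer cells of a type and less RNA per cell cannot be told apart.

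All 35 gene-array values of the 7 genes, read from each gene's brightest probe, were well above background. The second probes of Plac8, Tgm2 and Cacna1s were not so in iTreg, nor was that of Cacna1s in rested. Near-absence in iTreg described 6 of the genes. Their iTreg signals lay between 31.9 and 61.3 intensity units, which is 1.5 to 2.88 times the lowest signal that the software called well above background on that array, 21.3 units. The software's own error for those spots was 5.55 units for Cacna1s, the dimmest, and 8.23 units for Plac8, the brightest of the 6, so that folds against them are imprecise. Ly6c1 was not near-absent: its iTreg signal was 1729 units, 81.1 times that lowest signal, and 234 units on its second probe.

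Plac8 had processed signals of 57491 in Th1 cells, 104410 in Th1+TGFb cells, 16068 in rested cells, 6383 in Th1reg cells and 61.3 in iTreg cells. All 4 Th1-origin arrays were high, and Th1reg was the lowest of them. Over iTreg, the scaled log2 difference was 10.05 in Th1 cells, 11.18 in Th1+TGFb cells, 8.94 in rested cells and 6.52 in Th1reg, which are folds of 1060, 2325, 492 and 92.0. The smallest of these differences, that of Th1reg, was larger than the smallest difference of any other of 14063 genes compared. Against Th1 itself, Plac8 was 2.16-fold lower in rested and 11.5-fold lower in Th1reg, and it was 2.19-fold higher in Th1+TGFb. Its second probe gave folds over iTreg of at least 250 in Th1 cells, at least 632 in Th1+TGFb cells, at least 128 in rested cells and at least 18.6 in Th1reg. "At least" marks a bound here and below, because the dim array's probe was not well above background and took the array's lowest signal well above background where its own was below that.

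Ltb4r1, the leukotriene B4 receptor, had signals of 4779 in Th1 cells, 9656 in Th1+TGFb cells, 1992 in rested cells, 1175 in Th1reg cells and 41.6 in iTreg cells. The order of the cultures was that of Plac8, with Th1+TGFb highest and Th1reg lowest of the Th1-origin arrays. Its folds over iTreg were 130 in Th1 cells, 317 in Th1+TGFb cells, 89.9 in rested cells and 25 in Th1reg. The log2 difference of rested from Th1 was -0.53, and that of Th1reg from rested was -1.85.

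Ly6c1 had signals of 216942 in Th1 cells, 155422 in Th1+TGFb cells, 77764 in rested cells, 34813 in Th1reg cells and 1729 in iTreg cells. The arrays of Th1 and Th1+TGFb differed by only 0.21 log2 units once scaled, rested lay a little lower, and Th1reg was again the lowest of the Th1-origin arrays. Its folds over iTreg were 142 in Th1 cells, 123 in Th1+TGFb cells, 84.4 in rested cells and 17.8 in Th1reg. A second Ly6c1 probe, designed on another RefSeq transcript, disagreed with the first in Th1reg. It gave signals of 17523 in Th1 cells, 7820 in Th1+TGFb cells, 15760 in rested cells, 111 in Th1reg cells and 234 in iTreg cells. By that probe, Ly6c1 was 2.38-fold lower in Th1reg than in iTreg and 301-fold lower in Th1reg than in rested, whereas by the brighter probe it was 4.74-fold lower in Th1reg than in rested. Ly6c1 has a near-identical neighbour, Ly6c2, for which no probe could be matched, and which of these transcripts each probe reports is uncertain.

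**Figure D1:**
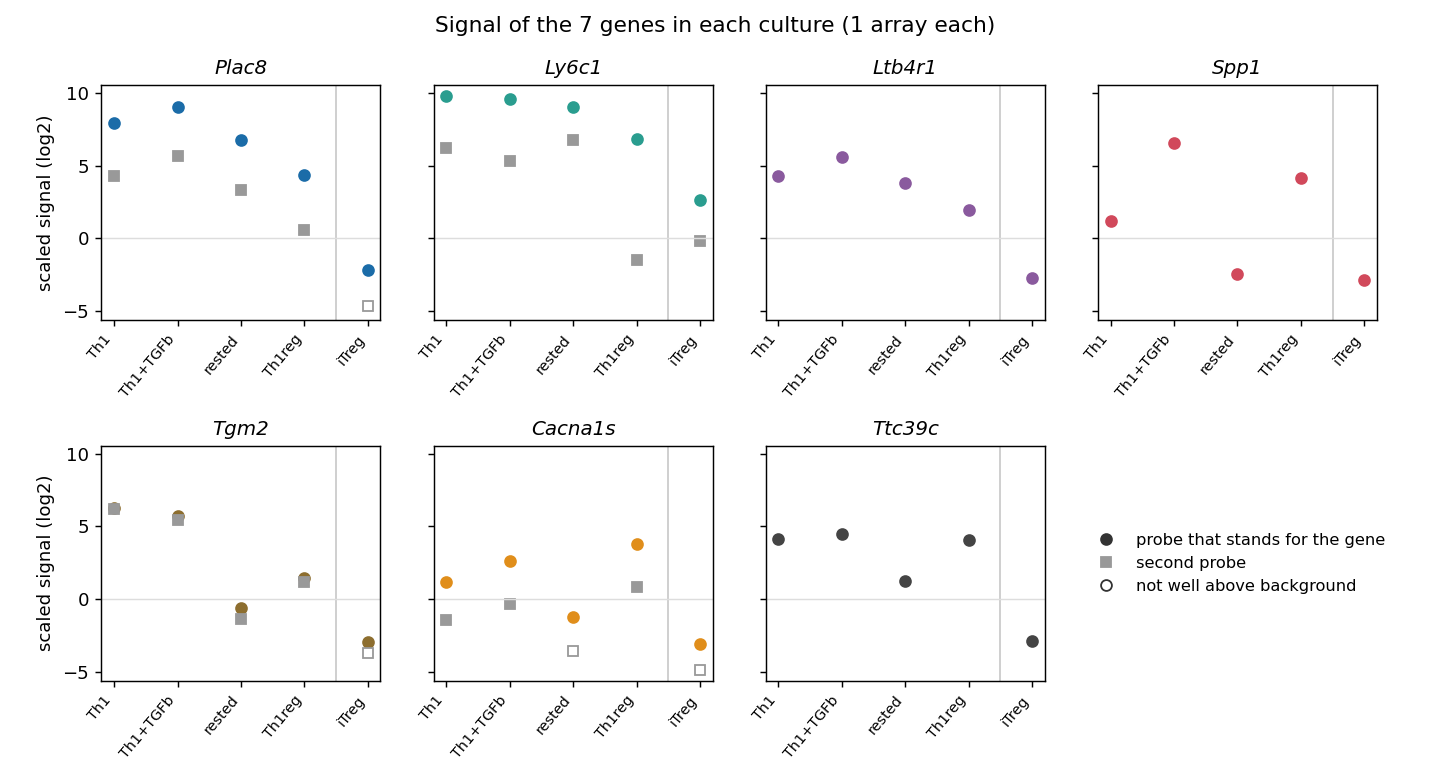
Scaled signal (log2 of processed signal minus log2 of the array's 75th percentile, vertical axis) of the 7 genes in each culture (horizontal axis), 1 array per culture. Circles are the probe that stands for the gene, squares its second probe where it has one, open symbols values not well above background, and the vertical line sets iTreg apart. Plac8, Ly6c1 and Ltb4r1 stay high in rested and are lowest of the Th1-origin arrays in Th1reg, whereas Spp1, Tgm2, Cacna1s and Ttc39c are lowest of those arrays in rested.

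Spp1, the gene of osteopontin, varied most among the Th1-origin cultures. Its signals were 546 in Th1 cells, 18623 in Th1+TGFb cells, 26.1 in rested cells, 5327 in Th1reg cells and 36.9 in iTreg cells. Both Th1-origin cultures that had been in the iTreg medium were high, Th1 was intermediate, and rested stood with iTreg near the background. The folds over iTreg were 16.7 in Th1 cells, 689 in Th1+TGFb cells, 1.33 in rested cells and 128 in Th1reg, so Spp1 was not 2-fold higher in every culture that had begun as Th1. Among those 4 cultures the highest and the lowest array were 519-fold apart, compared with 7.97-fold for Ly6c1 and 9.66-fold for Ttc39c, the narrowest spans of the 7. In Th1+TGFb it was 41.2-fold higher than in Th1, and in Th1reg it was 96.1-fold higher than in rested.

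Tgm2, the protein-cross-linking enzyme, had signals of 18888 in Th1 cells, 10249 in Th1+TGFb cells, 96.2 in rested cells, 847 in Th1reg cells and 34.9 in iTreg cells. Th1 and Th1+TGFb were high, and both cultures with a rest behind them were far lower. Tgm2 was 118-fold lower in rested than in Th1, the largest difference from Th1 of the 7 genes, and 4.15-fold higher in Th1reg than in rested, which left it 28.5-fold below Th1 in Th1reg. The folds over iTreg were 611 in Th1 cells, 401 in Th1+TGFb cells, 5.17 in rested cells and 21.4 in Th1reg. The second Tgm2 probe gave a 185-fold lower value in rested than in Th1 and folds over iTreg of at least 913 in Th1 cells, at least 554 in Th1+TGFb cells, at least 4.93 in rested cells and at least 28.4 in Th1reg.

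Cacna1s, the calcium channel subunit, had signals of 553 in Th1 cells, 1206 in Th1+TGFb cells, 62.4 in rested cells, 4310 in Th1reg cells and 31.9 in iTreg cells. It was the only one of the 7 genes whose highest scaled level was in Th1reg. There it was 32.5-fold higher than in rested, 6.09-fold higher than in Th1 and 2.31-fold higher than in Th1+TGFb. The folds over iTreg were 19.6 in Th1 cells, 51.6 in Th1+TGFb cells, 3.67 in rested cells and 119 in Th1reg. On its second probe, which was dim in both rested and iTreg, the folds over iTreg were at least 4.77 in Th1, at least 10.1 in Th1+TGFb and at least 23.1 in Th1reg.

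Ttc39c had signals of 4210 in Th1 cells, 4526 in Th1+TGFb cells, 341 in rested cells, 5090 in Th1reg cells and 37.4 in iTreg cells. Its scaled levels on the arrays of Th1, Th1+TGFb and Th1reg lay within 0.46 log2 units of each other, and rested alone was low among the Th1-origin arrays. Rested was 7.44-fold below Th1, and Th1reg was 7.03-fold above rested. The folds over iTreg were 127 in Th1 cells, 165 in Th1+TGFb cells, 17.1 in rested cells and 120 in Th1reg.

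**Figure D2:**
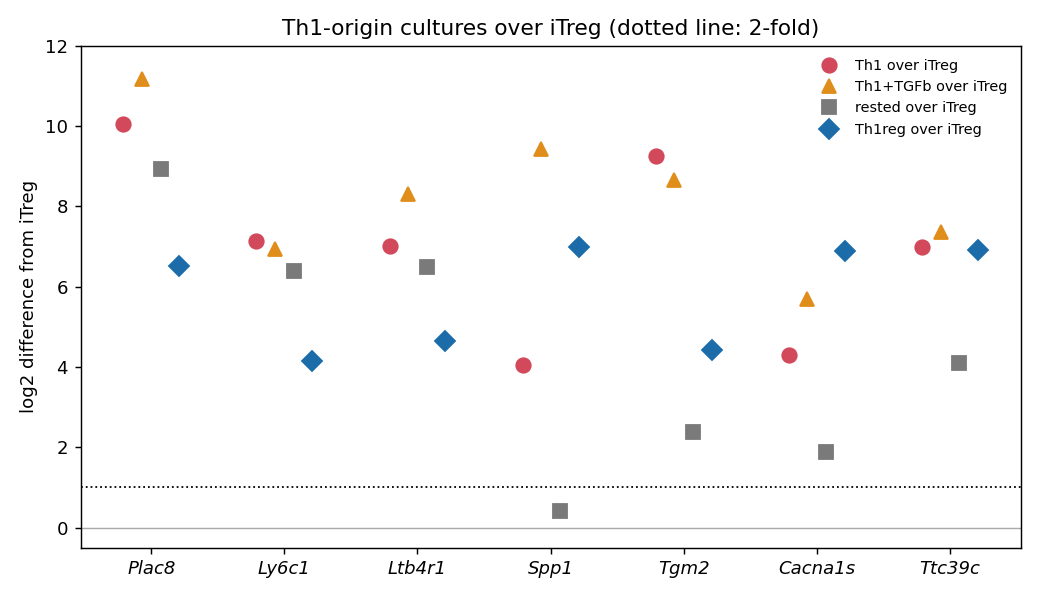
Scaled log2 difference from iTreg (vertical axis) of the 7 genes (horizontal axis) in each culture that began as Th1, 1 array each, with 2-fold as the dotted line. Only the probe that stands for each gene is drawn. Every point lies above 2-fold except Spp1 in rested, at 0.41, and the values describe how the genes were chosen. The second Ly6c1 probe, not drawn, stood at -1.25 in Th1reg.

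In the comparisons with iTreg, a gene counted as higher from a log2 difference of 1 (2-fold) upwards. In Th1, 7 of the 7 genes were higher than in iTreg, where 17.8% of all 13154 genes compared were, and the median log2 difference was 7.02 for the 7 genes against 0.23 for all genes. In Th1+TGFb the count was 7 of 7, against 16.3% of all genes, with medians of 8.31 and 0.10. In rested it was 6 of 7, against 17.1% of all genes, with medians of 4.10 and -0.04. In Th1reg it was 7 of 7, against 15.8% of all genes, with medians of 6.52 and 0.28. The second Ly6c1 probe, which these counts do not use, was lower in Th1reg than in iTreg. On all 4 Th1-origin arrays together, 6 of the 7 genes were at least 2-fold higher than in iTreg, against 3.06% of all genes, or 431 of 14063. These 4 comparisons share the iTreg array and are those that chose the genes, so nothing is read from the counts.

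The rule has no fixed threshold, and the smallest of a gene's 4 differences shows where the 7 genes lie. On that measure Plac8 ranked 1 of 14063 genes with 6.52, Ltb4r1 ranked 7 with 4.64, Ly6c1 ranked 10 with 4.15, Ttc39c ranked 11 with 4.10, Tgm2 ranked 65 with 2.37, Cacna1s ranked 128 with 1.88 and Spp1 ranked 1221 with 0.41. Prss16, a serine protease of the thymus, ranked 12 with 3.98, and several genes outside the 7 stood between Plac8 and it. Of these, Gimap7, a GTPase of the immunity-associated family, had 5.51, Ly6a, which encodes the surface antigen Sca-1, had 5.18, and the granzyme gene Gzmc had 5.04. Cst7, which encodes an inhibitor of lysosomal proteases, had 4.55. Tmem159 with 5.29 and Gzma with 4.46 were not well above background in iTreg, nor was Klra8 with 3.89 at rank 13, so those values are bounds. In all, 101 genes reached 4-fold on every Th1-origin array, 41 reached 8-fold and 11 reached 16-fold, and 4 of these 11 were Plac8, Ltb4r1, Ly6c1 and Ttc39c.

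**Figure D3:**
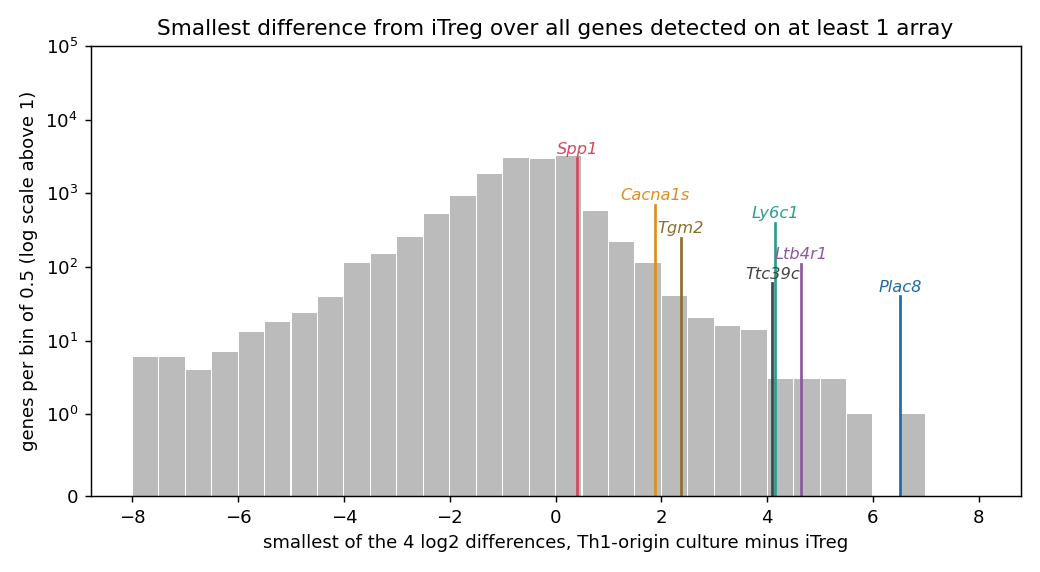
Number of genes (vertical axis, log scale above 1) by the smallest of the 4 log2 differences, Th1-origin culture minus iTreg (horizontal axis, bins of 0.5), over the 14063 genes compared, with values beyond 8 in either direction put in the end bins. A culture and iTreg that were both dim for a gene counted as no difference. Coloured lines mark the 7 genes, and their height has no meaning: Plac8 lies at the upper end with 6.52 and Spp1 among the bulk of genes with 0.41.

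Among the Th1-origin cultures, which the choice did not set against each other, rest after Th1 culture left 0 of the 7 genes higher than in Th1, against 17.6% of all genes, and 5 lower, against 26.6% of all genes. The median log2 difference was -2.42 for the 7 genes and -0.29 for all genes. Ltb4r1, at -0.53, and Ly6c1, at -0.75, stayed within 2-fold, and Plac8, at -1.11, only just left it. Tgm2 with -6.89, Spp1 with -3.66, Ttc39c with -2.90 and Cacna1s with -2.42 were lower by more. Their values depended on the scaling. Scaled to spike-in probes, which lowers the median of all genes in rested against Th1 by 1.16, Plac8 stood at -2.27, Ly6c1 at -1.91 and Ltb4r1 at -1.70. All 7 genes then counted as lower, as did 65.4% of all genes. With the 75th percentile or the median of detected probes, 4 counted as lower, against 14.6% and 20.2% of all genes.

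When Th1 cells went into the iTreg medium without rest, 4 of the 7 genes were higher than in Th1, against 11.4% of all genes, and 0 were lower, against 7.77% of all genes. The medians were 1.13 and -0.20. The 4 genes were Spp1 with a log2 difference of 5.36, Cacna1s with 1.40, Ltb4r1 with 1.29 and Plac8 with 1.13. Ttc39c with 0.38, Ly6c1 with -0.21 and Tgm2 with -0.61 stayed within 2-fold. With spike-in scaling, Plac8 was at 0.76 and Ltb4r1 at 0.92, and only Spp1 and Cacna1s of the 7 counted as higher, against 6.82% of all genes.

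When rested cells went into the same medium, 4 of the 7 genes were higher in Th1reg than in rested, against 27.6% of all genes, and 3 were lower, against 20.1% of all genes. The medians were 2.05 and 0.29. Spp1 with 6.59, Cacna1s with 5.02, Ttc39c with 2.81 and Tgm2 with 2.05 were higher. Plac8 with -2.42, Ly6c1 with -2.25 and Ltb4r1 with -1.85 were lower. With spike-in scaling, which raises the median of all genes in Th1reg over rested by 1.47, these 3 stood at -0.95, -0.77 and -0.38 and none counted as lower. The other 4 remained higher under that scaling, where 71.7% of all genes were higher.

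From Th1 to the end of the longer course, Th1reg against Th1 had 2 of the 7 genes higher, against 6.27% of all genes, and 4 lower, against 8.58% of all genes. The medians were -2.38 and 0.01. Spp1 with 2.93 and Cacna1s with 2.61 were higher in Th1reg, Ttc39c with -0.08 was level on these arrays, and Tgm2 with -4.83, Plac8 with -3.53, Ly6c1 with -3.0 and Ltb4r1 with -2.38 were lower. Against Th1+TGFb, which had the iTreg medium without the rest, 1 of the 7 genes was higher in Th1reg, against 12.3% of all genes, and 5 were lower, against 15.2% of all genes. The medians were -2.79 and 0.19. The higher gene was Cacna1s with 1.21, which fell short of 2-fold at 0.98 with the 75th percentile of detected probes and left no gene higher, and the lower genes were Plac8 with -4.66, Tgm2 with -4.22, Ltb4r1 with -3.67, Ly6c1 with -2.79 and Spp1 with -2.43. Ttc39c stood at -0.46. The comparisons in this and the preceding paragraphs share arrays, so their counts are not independent of each other.

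**Figure D4:**
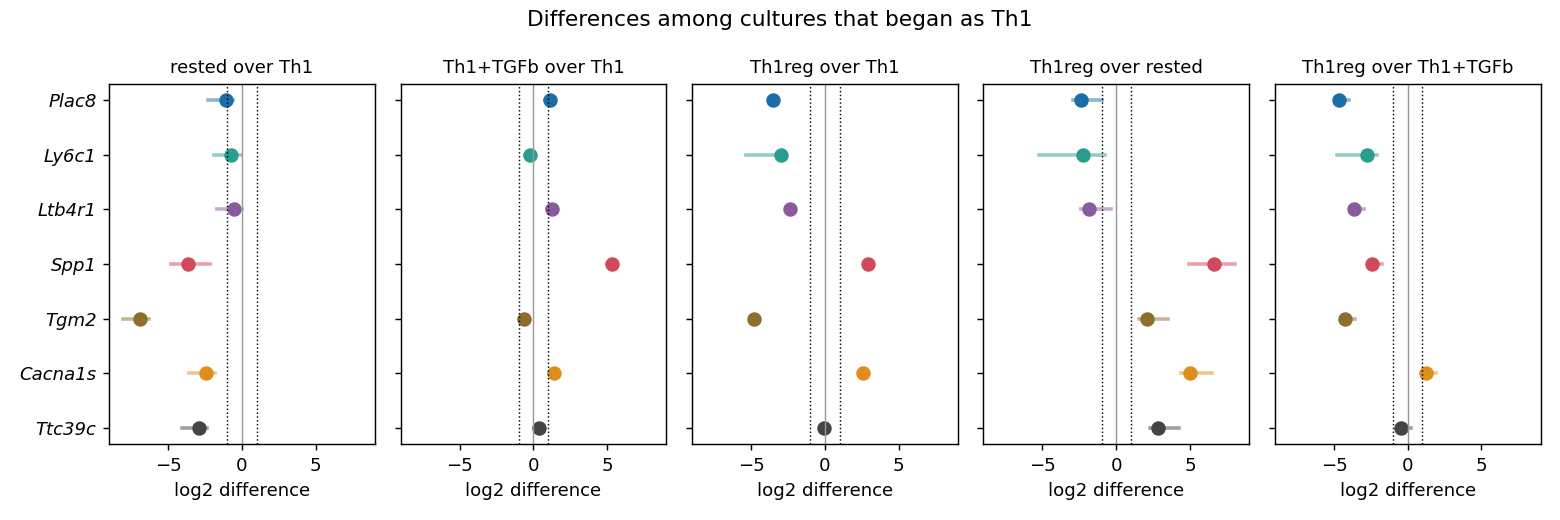
Scaled log2 difference (horizontal axis) of the 7 genes (vertical axis) in the comparisons among cultures that began as Th1, 1 array each. Pale bars span the values under the alternative settings and dotted lines mark 2-fold. Spp1, Tgm2, Cacna1s and Ttc39c lie left of 0 for rested over Th1 and right of it for Th1reg over rested. Plac8, Ly6c1 and Ltb4r1 lie left of 0 in both.

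Likeness of course was measured as the mean absolute difference of a gene's scaled levels over the 5 arrays, after each gene's own mean was taken off, over 12392 genes well above background on at least 3 arrays. The value is a description over 5 arrays. The iTreg array, on which the 7 genes were chosen for being low, is among them. Likeness among the 7, and to other genes low in iTreg, was thus partly set by the choice. A level not well above background was raised to the array's lowest signal well above it where it lay below. This touched Pdpn and Stra6 in rested and iTreg, Timp1 in rested, and Cd93 in iTreg, so their distances are approximate. Penk was not well above background in rested but lay above that lowest signal and kept its own value. Of the 7 genes, Ly6c1 and Ltb4r1 were the most alike with 0.45, and Plac8 and Spp1 the least with 3.28. Among all genes, Cd93 was close to Ly6c1 with 0.42. Nearest to Ltb4r1 was Ly6c1, and nearest to Plac8 were Ltb4r1 with 0.88 and Ly6c1 with 0.98. Nearest to Tgm2 were the granzyme gene Gzmb with 0.65 and Timp1, an inhibitor of metalloproteinases, with 0.72. Nearest to Spp1 were Pdpn, which encodes podoplanin, with 0.76 and Penk, which encodes proenkephalin, with 0.91. Nearest to Cacna1s were Stra6, a membrane receptor for retinol-binding protein, with 0.41 and Rai14 with 0.61. Nearest to Ttc39c were Batf3, a transcription factor of the AP-1 family, with 0.29 and Nkg7, a gene of cytotoxic granules, with 0.62.

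The other genes of the members' families and pathways were counted in the same way. In Th1 over iTreg, 18 of 28 measured genes of a Th1 programme list were at least 2-fold higher and 2 lower, with a median of 2.57. Ifng led it with 8.96, and Gzmb stood at 8.23. In rested over Th1, 6 genes of that list were higher and 14 lower, where 17.6% of all genes were higher and 26.6% lower. Of the Ly6 family, 4 of 12 genes other than Ly6c1 were higher in Th1 than in iTreg and 2 lower, with a median of 0.41, led by Ly6a with 7.87 and Ly6i with 3.13. Of the leukotriene genes, which make, cleave or bind these lipids, 3 of 10 were higher and 2 lower, with a median of 0.18. The receptors for cysteinyl leukotrienes, Cysltr1 with 4.20 and Cysltr2 with 6.13 as a bound, were among the higher ones, and Ggt5, which cleaves leukotriene C4, was lower with -1.43.

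Of the receptors of osteopontin, 3 of 7 were higher in Th1 than in iTreg and 1 lower, with a median of 0.33. Cd44 stood at 1.31 and the integrin gene Itga5 at 1.30, while Itga4, an integrin chain that binds osteopontin, was lower with -3.26. None of those 3 counted as higher with the 75th percentile taken over detected probes. Of the other transglutaminases, 1 of 5 was higher and 0 were lower, with a median of 0.27: Tgm1 stood at 3.0 as a bound. Of the other voltage-gated calcium channel genes, 0 of 12 were higher and 5 lower, with a median of -0.50, among them Cacna1a with -2.17 and Cacnb1 with -2.43 as a bound, and without a floor for dim probes 3 counted as higher. Of the store-operated calcium genes, 3 of 14 were higher and 3 lower, with a median of 0.25, among them the calcium pump gene Atp2b4 with 2.85, the channel gene Orai2 with -1.95 and the calcium sensor gene Stim2 with -1.23. The 2 measured relatives of Ttc39c and Plac8, Ttc39b with 0.42 and Cnfn with -0.20 as a bound, stayed within 2-fold. In the same comparison, Th1 over iTreg, 17.8% of all genes were higher and 10.9% lower, with a median of 0.23.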

How the data were processed

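RNA of 5 cultures was hybridised to 1-colour Agilent mouse arrays, 1 per culture. The members and the gene lists were chosen with earlier results of these data known. The authors deposited scanner output from Agilent Feature Extraction 10.7.1.1, per the file headers, whose processed signal is a linear intensity, background-subtracted and detrended within the array. The deposited value table is an intensity too: 99.7% to 99.8% of its probes lay within 0.01 log2 units of the processed signal divided by 1 constant per array, with column medians of 0.0762 (Th1), 0.103 (Th1+TGFb), 0.123 (rested), 0.0693 (Th1reg) and 0.0925 (iTreg). How these constants were set is not stated.

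Control spots and outlier spots (109 to 142 per array) were left out, and 0 spots were saturated. Log2 signals were scaled to each array's 75th percentile over non-control spots. Probes were named through RefSeq accessions in a GRCm38.p6 gene table, used for names only since the array design names mm9, which matched 28331 of 55681 probes. Each gene was read from its brightest probe on average. A comparison dropped genes that were dim on each of its arrays. For the smallest difference from iTreg such genes were kept, and a pair of dim values counted as no difference. Between 45.7% and 48.7% of spots per array were well above background. From each array's median over repeat probes, repeat spots gave a difference an SD of at most 0.10 log2 units, or 0.26 where signals were under 100. These are typical values and not upper limits for a single gene. They cover the array and not the culture. No tests could be made.

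The text names the 7 members, up to 3 genes per list with the largest differences, 2 genes nearest each member in course and 8 other genes by smallest difference, predicted genes left out; some genes that this rule names are not reported here. There were 9 alternatives: other percentiles, spike-ins, limma 3.58.1 normexp (offset 50, on the median signal, as no mean signal column was present), no floor, the deposited value table, the median over probes, outlier spots kept and a 4-fold limit. Comparisons were computed with Python 3.11.15, and the counting was tested on simulated data. Only bright probes were changed there, so the test did not cover changes near background.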

Additional observations from a re-analysis of the deposited data

Results flagged for a closer look

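Between the step into the iTreg medium after rest and the same step without rest, 3 of the 7 genes had log2 differences of opposite sign. For Plac8 the log2 difference was -2.42 in Th1reg over rested and 1.13 in Th1+TGFb over Th1. For Ltb4r1 it was -1.85 in Th1reg over rested and 1.29 in Th1+TGFb over Th1. For Tgm2 it was 2.05 in Th1reg over rested and -0.61 in Th1+TGFb over Th1, where it stayed within 2-fold. With spike-in scaling neither step reached 2-fold for Plac8, at -0.95 and 0.76, or for Ltb4r1, at -0.38 and 0.92, in the same order of comparisons. The difference between these pairs was not tested, since each culture had 1 array, and the pairs also differ in total culture time.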

How the results depend on the processing

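Of the 91 differences that were at least 2-fold as reported, 0 of 728 values under the alternatives changed direction. No alternative read a gene from its second probe alone. On the second Ly6c1 probe, Th1reg over iTreg stood at -1.25, opposite in sign to the 4.15 of the brighter probe. Of 1283 values of all kinds, counts and shares included, 933 stayed close to those reported. Below 2-fold, a few crossed 0: Spp1 in rested over iTreg (-1.05 to 0.58), Ly6c1 in Th1+TGFb over Th1 (-0.58 to 0.03), Ttc39c in Th1reg over Th1 (-0.09 to 0.23) and over Th1+TGFb (-0.69 to 0.22), and Ttc39b in Th1 over iTreg (-0.50 to 0.46). The size of the differences from iTreg moved too, in Th1 between 8.88 and 10.08 for Plac8 and between 5.66 and 7.06 for Ltb4r1. Of the 90 counts that answer a comparison, 87 stayed within 1.5 times. The other 3 were the genes at least 2-fold apart in Th1+TGFb over Th1, which were 4 and became 2 with spike-in scaling and 1 at a 4-fold limit, and those in Th1reg over rested, which were 7 and became 4 with spike-ins. In rested over iTreg, Tgm2 stood at 0.92 and Cacna1s at 0.42 with spike-ins, which left 4 of the 7 genes higher on all Th1-origin arrays. Cacna1s in Th1reg over Th1+TGFb stood at 0.98 when the 75th percentile was taken over detected probes. With the median over probes, Ly6c1 in Th1reg over iTreg stood at 1.45. The share of all genes at least 2-fold apart moved more: lower in rested over Th1 between 14.6% and 65.4%, higher in rested over iTreg between 2.45% and 20.7%, higher in Th1reg over rested between 16% and 71.7%, and higher in Th1reg over Th1+TGFb between 7.19% and 42.7%. In Th1 the share lower than iTreg ran from 5.1% to 18.4%. For higher than iTreg it ran from 10.1% to 18.6% in Th1, from 8% to 17.1% in Th1+TGFb and from 8.31% to 17.5% in Th1reg. Over Th1 the higher share ran from 4.53% to 27.6% in rested, from 4.9% to 15.1% in Th1+TGFb and from 3.55% to 10.8% in Th1reg, and the lower share from 4.1% to 21.4% in Th1+TGFb and from 4.84% to 9.36% in Th1reg. The share lower in Th1reg ran from 5.45% to 27.9% over rested and from 7.94% to 19% over Th1+TGFb. No paired analysis was possible because each culture had 1 array, and for the same reason no array could be left out. Signals near background limit the folds over iTreg of all the genes but Ly6c1.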
